A study of Mus musculus with 17 samples.

Results

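The annexins are a family of calcium-dependent membrane-binding proteins. The 9 genes described here, Anxa1 to Anxa8 and Anxa11, were chosen by symbol and found by their Ensembl identifiers among 43430 gene IDs in each of 2 count tables from alveolar epithelial type 2 (AT2) cells. AT2 cells make the surfactant of the lung alveolus and can give rise to the flat type 1 (AT1) cells. They were sorted from C57BL/6J mice aged 2 months, and RNA was sequenced in 17 libraries. The poly(A) set held 4 vehicle and 4 ISRIB libraries from naive mice, taken 24 h after dosing. ISRIB is a small molecule that counters the translation block of the integrated stress response. The total-RNA set held 4 naive libraries and 5 libraries from mice given bleomycin, a drug that injures the lung, 14 days earlier. All 9 total-RNA libraries, the bleomycin ones included, are also labelled vehicle and saline. No dose is given in the labels, and they do not say which libraries came from separate animals, so the p-values measure only the spread between these libraries.

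Total counts ran from 10493574 to 15727139 in the poly(A) libraries and from 3295257 to 6333166 in the total-RNA libraries. Of 12 AT2 markers none was at 0 in any library, which shows AT2 RNA but does not measure the purity of the cells. Ptprc, the pan-leukocyte gene, was at or under 0.20 CPM (counts scaled to a common library depth) in the poly(A) libraries and at or under 1.70 CPM in the total-RNA libraries. The kits differed in RNA selection and input, so each comparison was made within its own kit. In these bulk samples, fewer cells of a type and less RNA per cell cannot be told apart.

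Annexins have a conserved core and a variable amino-terminal tail that binds partner proteins. In most members the core binds acidic phospholipids such as phosphatidylserine when calcium is present. When a plasma membrane is torn, calcium enters and annexins gather at the wound. In AT2 cells, Anxa2 and Anxa7 are known for promoting the fusion of lamellar bodies, the surfactant stores, with the plasma membrane. Anxa1 also acts outside the cell, where its tail engages formyl peptide receptors and dampens inflammation.

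In naive cells the family spanned a wide range of levels. Levels of different genes are compared here as CPM per kilobase of exon, within a kit. In the naive total-RNA libraries Anxa6, which carries a doubled core, stood at 81.1 ± 5.87 (SD, n = 4). Anxa5, a phosphatidylserine-binding protein that forms lattices on membranes, followed at 70.8 ± 2.77, and the library ranges of these 2 genes overlapped. Anxa2 (61.2 ± 4.21), Anxa4 (43.4 ± 3.60) and Anxa3 (36.6 ± 3.73) came next, and only Anxa4 and Anxa3 among these neighbours overlapped. Anxa1 was lower, at 22.7 ± 4.22. Anxa7 (7.41 ± 0.95) and Anxa11 (6.72 ± 0.93) overlapped each other. Anxa8 was the lowest at 0.60 ± 0.44, with 16 counts over the 4 naive libraries.

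The vehicle poly(A) libraries gave nearly the same order. Anxa5 (163 ± 9.91, n = 4, CPM per kilobase) and Anxa6 (163 ± 5.29) overlapped at the top. Anxa2 (127 ± 8.09), Anxa4 (76.3 ± 1.91), Anxa3 (57.1 ± 4.13) and Anxa1 (31.4 ± 3.85) followed without overlap between neighbours. Anxa11 (15.2 ± 1.03) and Anxa7 (14.9 ± 0.96) overlapped, and Anxa8 was again lowest at 1.29 ± 0.21. Of the other family members in the annotation, Anxa9 was at 2.00 ± 0.26 CPM in vehicle libraries and 3.89 ± 1.46 CPM in naive libraries. Anxa10 and Anxa13 had 0 counts in all 17 libraries, which allows up to 0.0303 CPM over the pooled poly(A) set and 0.0760 CPM over the pooled total-RNA set (3 counts of the total, covering counting error only).

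**Figure D1:**
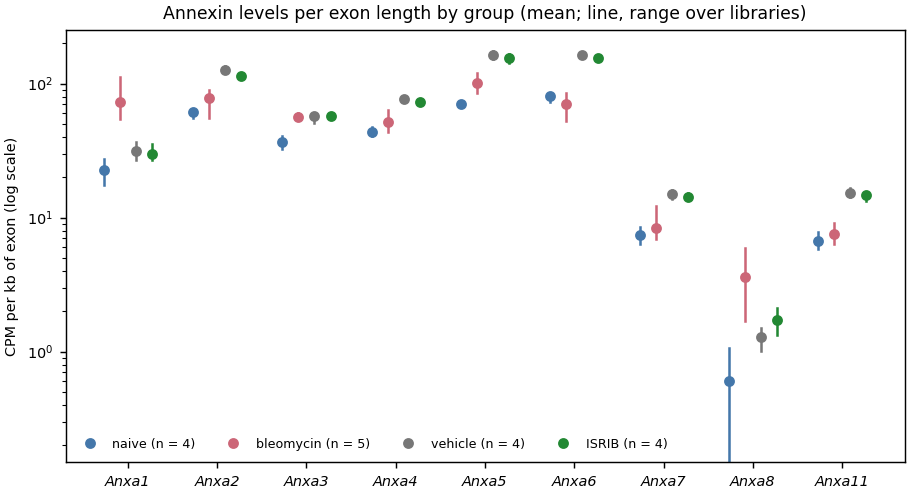
Level of each annexin in CPM per kilobase of exon (log axis) in the 4 groups; points are means and lines are the range over libraries. Anxa8 was lowest in every group, from 0.60 in naive to 3.60 in bleomycin libraries; the naive library of Anxa8 at 0 lies off the log axis.

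Part of the family was higher after bleomycin. Genes detected per library were 17108 to 19763 in naive and 13940 to 17112 in bleomycin libraries, ranges that only just overlapped. Ribosomal-RNA-like models took 20.84% to 31.86% of the counts, with overlapping groups, and the part of either in the annexin changes was not tested. Of the 9 annexins, 4 rose (Anxa1, Anxa3, Anxa5 and Anxa8) and none fell at a Benjamini-Hochberg adjusted p of 0.05, by edgeR's quasi-likelihood test over 11223 genes, of which 20.5% were called, 11.2% higher and 9.31% lower. Anxa8 passed the filter on low counts only through the bleomycin libraries, so it had to differ. Among the other 8 annexins 3 rose. Those 3, Anxa1, Anxa3 and Anxa5, had every bleomycin library above every naive library, as had 10.4% of all genes tested (19.7% in either direction). The same held for Anxa8, where the filter favours it. The median log2 fold change of the 9 was 0.34, and 0.29 without Anxa8, against 0.0026 over all genes tested.

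Anxa1 (ENSMUSG00000024659, chromosome 19, 20373428 to 20390944, minus strand, GRCm38) had the lowest p of the family. The 4 naive libraries stood at 72.1, 79.3, 61.3 and 51.3 CPM and the 5 bleomycin libraries at 191, 328, 198, 157 and 182 CPM. Bleomycin 2 was far above the other bleomycin libraries, and the lowest bleomycin library was still above every naive one. Its mean of 66.0 ± 12.3 CPM in naive cells (n = 4) compared with 211 ± 66.8 CPM after bleomycin (n = 5). The rise was 3.20-fold (95% interval 2.43 to 4.22), or 1.68 on the log2 scale (SE 0.19, edgeR adjusted p 7.88e-06). Without bleomycin 2 the change was 1.47 (adjusted p 8.43e-07).

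Anxa8 (ENSMUSG00000021950, chromosome 14, 34085981 to 34100571, plus strand), a phospholipid-binding annexin that was scarce in these cells, held 16 counts over the naive and 171 over the bleomycin libraries. By library the naive values were 2.01, 1.28, 1.20 and 0 CPM, and the bleomycin values 3.17, 11.2, 4.03, 8.66 and 6.81 CPM. All bleomycin libraries were higher, with wide scatter among them, and only these libraries brought the gene past the filter. The ratio of summed counts was 6.37 (95% Clopper-Pearson interval 3.81 to 11.4, counting error only), and the fitted log2 fold change was 2.57 (SE 0.60, edgeR adjusted p 0.00497).

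Anxa3 (ENSMUSG00000029484, chromosome 5, 96793339 to 96845966, plus strand) rose with little scatter. Naive libraries stood at 126, 149, 140 and 119 CPM, and bleomycin libraries at 205, 221, 212, 194 and 195 CPM. The groups were well apart. Means were 133 ± 13.6 and 205 ± 11.2 CPM (n = 4 and 5). The rise was 1.54-fold (1.31 to 1.80), or 0.62 on the log2 scale (SE 0.11, edgeR adjusted p 5.72e-04).

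Anxa5 (ENSMUSG00000027712, chromosome 3, 36448923 to 36475894, minus strand) stood at 129, 129, 127 and 119 CPM in naive libraries and at 164, 184, 215, 150 and 191 CPM in bleomycin libraries. The naive values were tight and the bleomycin values, all higher, were more spread. The log2 fold change was 0.52 (SE 0.12, edgeR adjusted p 0.00416), 1.44-fold (1.21 to 1.71).

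**Figure D2:**
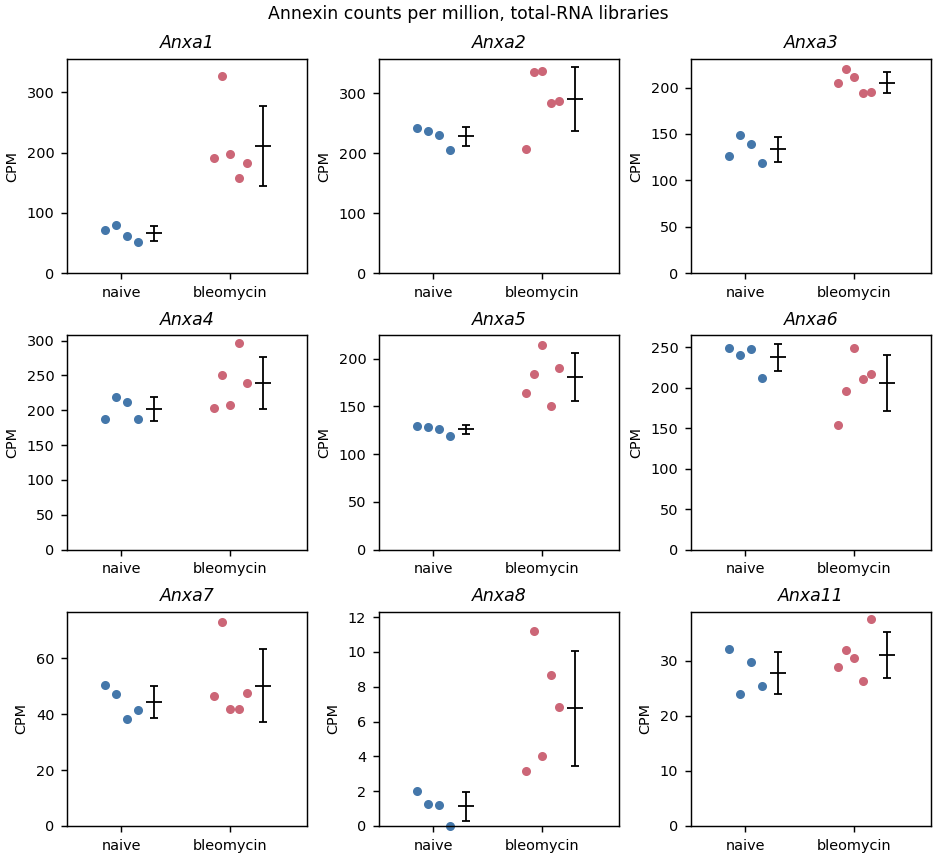
CPM of each annexin in the 4 naive and 5 bleomycin total-RNA libraries (points, in replicate order), with the mean and SD beside each group. The groups did not overlap for Anxa1, Anxa3, Anxa5 and Anxa8, and bleomycin 2 was the highest library for Anxa1 at 328 CPM.

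The other 5 annexins did not pass. Anxa2 (ENSMUSG00000032231, chromosome 9, 69453620 to 69491795, plus strand), which with S100a10 forms a cell-surface plasminogen receptor, was at 242, 236, 229 and 206 CPM in naive libraries. In bleomycin libraries it was at 206, 336, 336, 283 and 287 CPM. Bleomycin 1 lay among the naive libraries and the other 4 lay above them. The log2 fold change was 0.34 (SE 0.13, edgeR adjusted p 0.0783), and the 5 libraries averaged 1.27-fold of naive. Anxa2 passed without bleomycin 1 (0.45, adjusted p 0.00613) and without the filter on low counts (0.37, adjusted p 0.0488).

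Anxa4 (ENSMUSG00000029994, chromosome 6, 86736840 to 86793584), an annexin abundant in epithelia, ranged from 187 to 219 CPM in naive and from 203 to 296 CPM in bleomycin libraries (fold 1.18, interval 0.987 to 1.42). Anxa6 (ENSMUSG00000018340, chromosome 11, 54979108 to 55033445) ranged from 213 to 250 CPM in naive and from 154 to 249 CPM in bleomycin libraries. It was the 1 member with a negative estimate, a fold of 0.867 (lower bound 0.720, upper bound above 1). Anxa7 (ENSMUSG00000021814, chromosome 14, 20455260 to 20480133) ranged from 38.1 to 50.6 CPM and from 41.8 to 73.1 CPM (fold 1.13, 0.884 to 1.45). For this gene bleomycin 2 alone exceeded the naive range, and without it the log2 fold change of 0.18 became 0.0064. Anxa11 (ENSMUSG00000021866, chromosome 14, 25842156 to 25886804), which tethers RNA granules to lysosomes, ranged from 23.9 to 32.2 CPM and from 26.3 to 37.5 CPM (fold 1.13, 0.889 to 1.42). These 4 groups overlapped, with edgeR adjusted p from 0.183 to 0.50. For Anxa7 the interval still holds the 1.44-fold of Anxa5. Exons of Anxa2, Anxa4 and Anxa11 share 1.61% to 2.73% of their bases with opposite-strand models, and Anxa3 shares 3.07% with a same-strand model, so their counts may be slightly affected by how reads were assigned.

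The make-up of the family differed between the groups. The 9 annexins together took 962 to 1132 CPM of the library total in naive libraries and 1169 to 1695 in bleomycin libraries. Anxa1 held 6.16% ± 0.80 of the summed annexin counts in naive libraries and 14.7% ± 3.38 in bleomycin libraries. The share of Anxa6 was 22.3% ± 0.73 in naive and 14.5% ± 1.96 in bleomycin libraries, with no overlap (21.3% to 22.9% against 12.1% to 16.7%), although the level of Anxa6 itself did not pass. These shares are a description, with no test. Per kilobase of exon, Anxa5 led the bleomycin libraries at 102 ± 14.0 (n = 5). Anxa2 (77.6 ± 14.3), Anxa1 (72.6 ± 22.9), Anxa6 (70.2 ± 11.8), Anxa3 (56.3 ± 3.08) and Anxa4 (51.4 ± 8.12) followed, each overlapping the next. Anxa7 (8.38 ± 2.18) and Anxa11 (7.50 ± 1.02) overlapped each other and stood apart from Anxa4 above and from Anxa8 (3.60 ± 1.76) below.

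Promoter sequence is shown for Anxa1 and Anxa8, which had the largest estimates after bleomycin, and for Anxa2, to set their proximal letters side by side. RefSeq promoter windows (GRCm38.p6) were matched for 7 of the 9 genes. In the 250 bases before each start, both strands were searched for 4 motifs. These were the box with the letters TATAAA, the AP-1 motif with the letters TGANTCA, the TEAD motif with the letters GGAATG, and the STAT motif with the letters TTCNNNGAA, where N is any base. No 2 matches in the family's windows overlapped. Capitals mark a match, and each line reads 5′ to 3′ on the gene's strand. The lines are Anxa1 at chr19:20390686-20390715 (minus strand), Anxa2 at chr9:69453653-69453682 and chr9:69453433-69453619 (plus strand), and Anxa8 at chr14:34085729-34085978 (plus strand). The shorter Anxa1 and Anxa2 stretches lie before the RefSeq start but within an exon of a GENCODE model.
Anxa1: cagttcatatccTATAAAatcaggagtcca
Anxa2, proximal: aggatggggcgggTATAAAagccccaccca
Anxa2, distal: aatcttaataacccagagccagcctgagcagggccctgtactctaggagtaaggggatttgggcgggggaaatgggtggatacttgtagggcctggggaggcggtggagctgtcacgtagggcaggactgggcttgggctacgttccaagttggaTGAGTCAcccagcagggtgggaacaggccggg
Anxa8: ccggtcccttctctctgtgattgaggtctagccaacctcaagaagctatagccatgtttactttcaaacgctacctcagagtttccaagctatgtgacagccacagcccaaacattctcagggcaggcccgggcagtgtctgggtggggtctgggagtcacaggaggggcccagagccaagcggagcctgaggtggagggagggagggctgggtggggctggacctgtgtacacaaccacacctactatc
TATAAA lay 32 bases before the start of Anxa1 and 17 bases before that of Anxa2, and in none of the other windows of the family. It was in 12.4% of the 32851 promoter windows of the table. The AP-1 letters were in the Anxa2 window only, 95 bases before the start, against 6.75% of all windows. The TEAD letters were in the Anxa1 window only, 236 bases before the start, on the other strand and outside the stretch shown (12.6% of all windows). The STAT letters were in none of the family's windows (7.02% of all). Of the 3 annexins that rose and had a window, Anxa5 and Anxa8 held none of the searched letters, and Anxa2, which did not pass, held the letters TATAAA as Anxa1 did. A match is a description of letters, not of a bound site.

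The EF-hand proteins that bind annexin tails were a mixed group after bleomycin. Of 9 listed genes 7 were tested and 2 rose (against 11.2% of all genes), with a median log2 fold change of 0.10. S100a11, the calcium sensor that pairs with Anxa1, stood at 35.6, 57.3, 36.6 and 38.2 CPM in naive and at 94.96, 135, 79.0, 70.5 and 87.9 CPM in bleomycin libraries. Every bleomycin library was higher, and the log2 fold change was 1.15 (SE 0.19, edgeR adjusted p 2.81e-04). S100a6, a partner of Anxa11, rose by 0.91 (SE 0.31, adjusted p 0.0443), from 8.41 to 20.7 CPM in naive to 17.7 to 49.6 CPM in bleomycin libraries. Those ranges overlapped, and without bleomycin 2, the highest library, its change was 0.55 (adjusted p 0.147). The call was also lost without naive 1 (0.0741), naive 3 (0.148) or naive 4 (0.142), and with limma-voom (0.0814).

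S100a10, the partner of Anxa2, did not pass. It was at 55.5 to 73.5 CPM in naive and 29.9 to 72.5 CPM in bleomycin libraries, a log2 fold change of -0.15 (SE 0.19, edgeR adjusted p 0.632). Bleomycin 1, the low library for Anxa2, was also the low library here, and without it the change was 0.01. Pdcd6, which binds the tails of Anxa7 and Anxa11, changed by 0.10 (adjusted p 0.790), and Sri, a partner of Anxa7, by 0.21 (adjusted p 0.478).

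Of 13 listed membrane repair genes 11 were tested and 4 rose after bleomycin (11.2% of all genes rose), with a median log2 fold change of 0.29. The calpain subunit gene Capn2, whose protease cuts cytoskeletal links at wounds, was at 74.2 to 75.4 CPM in naive and 109 to 123 CPM in bleomycin libraries (0.65, SE 0.10, edgeR adjusted p 2.56e-04). The shared small subunit Capns1 rose by 0.47 (adjusted p 0.0126), a call lost without naive 3 (0.0601) or naive 4 (0.0570). The caveolar coat gene Cavin1 rose by 0.43 (adjusted p 0.00929). The ESCRT-III gene Chmp4b, which falls outside the naming rule and was named after its value was seen, rose by 0.45 (adjusted p 0.0293). Its groups overlapped, at 96.8 to 115 CPM in naive and 104 to 187 CPM in bleomycin libraries. Exons of Capn2 and Capns1 share 27.1% and 8.16% of their bases with opposite-strand models. The most abundant genes of the list, Ahnak (1122 and 1061 CPM in naive and bleomycin means) and the ferlin gene Myof (285 and 296 CPM), had adjusted p of 0.640 and 0.762.

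Another list held genes that set which side of the membrane shows phosphatidylserine, the lipid annexins bind. Of 9 listed 8 were tested, and 1 rose and 1 fell, a share near the 20.5% called over all genes. Tmem30a, the subunit that flippases need, rose from 338 ± 21.5 to 491 ± 33.6 CPM (n = 4 and 5, log2 fold change 0.54, edgeR adjusted p 0.00170). Atp8a1, a flippase that returns the lipid to the inner side, fell by 0.54 (adjusted p 0.00790), from 1451 to 1517 CPM in naive to 704 to 1134 CPM in bleomycin libraries. Its fall was smaller without bleomycin 2 (-0.43, adjusted p 0.00793). Of 9 listed surface ligands, proteases and receptors 3 were tested and 1 rose (11.2% of all genes rose), the membrane protease gene Mmp14 (1.05, adjusted p 8.12e-04). The formyl peptide receptor genes Fpr1 and Fpr2 held 2 and 1 counts over the 9 total-RNA libraries and 0 over the 8 poly(A) libraries.

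Markers of other cell states also differed between the groups, where 11.2% of all genes were called higher and 9.31% lower. All 15 markers of the transitional state between AT2 and AT1 cells passed higher. Cldn4 and Ccn2, with 8 naive counts each, passed the filter only through the bleomycin libraries, so they had to differ. Tnip3, at 2.01 CPM in its lowest naive library, also needed bleomycin libraries to pass (2.57 CPM in 4 libraries). The summed level of the 15 was 628 to 696 CPM in naive and 1630 to 2153 CPM in bleomycin libraries. Of 14 AT1 markers 13 were tested and 9 rose (2186 to 2430 against 3477 to 3760 CPM). Pdpn among them, at no more than 2.38 CPM in any naive library, passed the filter only through the bleomycin libraries. The 12 AT2 markers summed to 91581 to 95224 CPM and to 53777 to 104410 CPM, with 2 higher and 2 lower. The part of these states in the annexin changes was not tested.

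Of 10 fibroblast markers 4 were tested and 3 rose (11.2% of all genes rose). The 10 summed to 5.07 to 13.05 CPM in naive and 19.6 to 131 CPM in bleomycin libraries. The collagen genes Col1a1 (19 and 497 counts in naive and bleomycin libraries), Col3a1 (41 and 369) and Col1a2 (18 and 226) were the 3 that rose. Col1a2, at no more than 2.01 CPM in any naive library, passed the filter only through the bleomycin libraries. Col1a1 (0.30 to 3.02 CPM in naive libraries) and Col3a1 (1.19 to 4.50 CPM) needed them too. The filter asked for 2.57 CPM in 4 libraries, so it favours a rise in these genes. Dcn, below the filter, had 1 and 51 counts, and Lum had none. Every bleomycin library exceeded the naive maximum in this sum. Bleomycin 2 was the highest, as it was among bleomycin libraries for Anxa1, Anxa3, Anxa7 and Anxa8. Anxa2 was level in bleomycin 2 and bleomycin 3, at 336 CPM in each. Anxa5 and Anxa6 were highest in bleomycin 3, Anxa4 in bleomycin 4 and Anxa11 in bleomycin 5. Bleomycin 3 had the lowest fibroblast sum of the bleomycin libraries, 19.6 CPM. The part of fibroblast RNA was not tested. Macrophage and monocyte markers summed to 11.6 to 14.3 CPM and 12.1 to 34.5 CPM, with 3 of 16 tested and none called by edgeR (0 also at an unadjusted p under 0.05). Between 7 and 10 of the 16 were at 0 in each library, among them Marco and C1qa in all 9. Below the filter, Spp1 had 1 count in naive and 155 in bleomycin libraries and Ctss had 3 and 25, named after their values were seen. The part of macrophage RNA was not tested. Neutrophil markers summed to at most 0.58 CPM in naive and 1.88 CPM in bleomycin libraries, none of 10 was tested, and 8 to 10 were at 0 in each library. The part of neutrophil RNA was not tested.

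Of 10 endothelial markers 5 were tested and 2 rose (11.2% of all genes rose), Vwf (3.44-fold, edgeR adjusted p 0.00948) and Cdh5 (2.72-fold, 0.0183). The sums were 19.7 to 28.8 CPM in naive and 23.9 to 85.9 CPM in bleomycin libraries. Of 11 airway markers 8 were tested and 2 rose (against the same 11.2%), the ciliated-cell genes Foxj1 (4.83-fold, edgeR adjusted p 0.00440) and Ccdc153 (3.28-fold, 0.0181). Cdh5, Foxj1 and Ccdc153 stood at 1.19, 2.09 and 0.89 CPM in their lowest naive library. They needed the bleomycin libraries to pass the filter (2.57 CPM in 4 libraries), which favours a rise. The airway sums, most of which came from Scgb1a1, were 456 to 892 and 512 to 1003 CPM. Of 10 lymphocyte markers 1 was tested and did not pass, with sums of 1.79 to 8.81 and 1.29 to 9.39 CPM. These genes were named after their values were seen, and their part in the annexin changes was not tested.

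**Figure D3:**
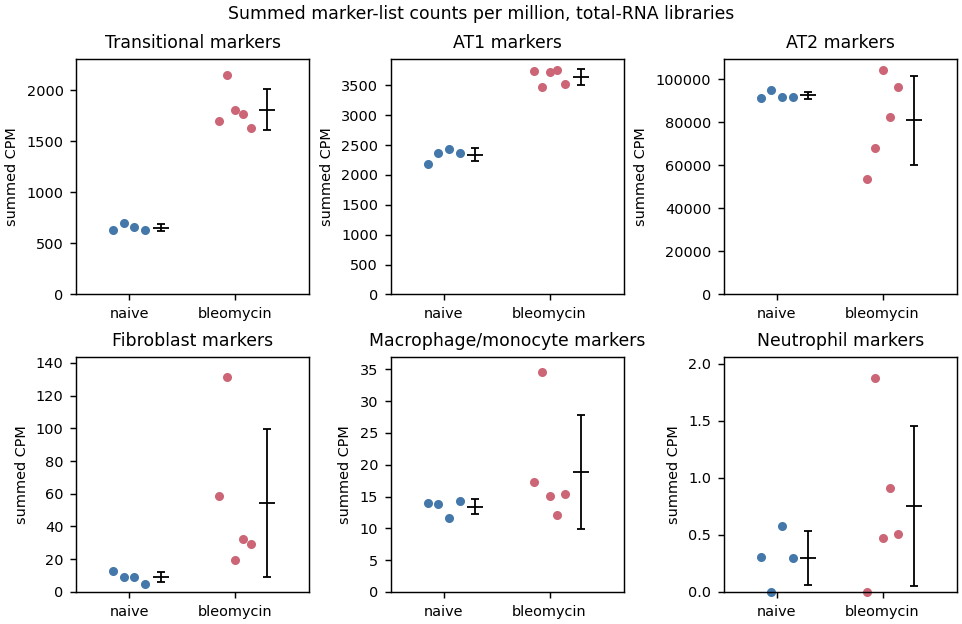
Summed CPM of 6 marker lists in the 4 naive and 5 bleomycin libraries (points), with mean and SD. Transitional and AT1 sums did not overlap between the groups, and neutrophil markers stayed at or below 1.88 CPM.

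Over the 9 total-RNA libraries, genes whose deviations from their group means were most like those of Anxa1 included Spint1 (Pearson r 0.96) and Car2 (0.95). They were taken from 5700 genes with a mean of at least 20 CPM, of which the top 1% had r above 0.84. This is a description, and the libraries share differences in depth. Bleomycin 2 was apart for Anxa1 (328 CPM, the other bleomycin libraries 157 to 198), and its weight in these r values was not tested.

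ISRIB left the annexins near their vehicle levels. None of the 9 passed by edgeR, DESeq2 or limma-voom, and 1, Anxa2, had an unadjusted p under 0.05, as had 1934 of all genes tested. By edgeR 2.2% of 12054 genes were called, 1.1% higher and 1.1% lower. The median log2 fold change of the 9 was -0.06 against -0.00014 over all genes tested, with 7 estimates below 0. The 95% intervals of the fold ran from 0.825 to 1.09 over the 8 annexins other than Anxa8, so changes as large as the 1.44-fold of Anxa5 after bleomycin lie outside them. Anxa2 stood at 506, 448, 446 and 490 CPM in vehicle and 421, 428, 435 and 422 CPM in ISRIB libraries. Every ISRIB library was lower, as is so in either direction for 8.65% of all genes tested (4.26% higher). The log2 fold change was -0.15 (SE 0.05, edgeR adjusted p 0.170).

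Anxa1 was at 106, 78.7, 91.6 and 89.9 CPM in vehicle and 78.2, 85.5, 79.1 and 102 CPM in ISRIB libraries, with overlapping groups (log2 fold change -0.09, edgeR adjusted p 0.704). Anxa3 was the nearest to no change, at 186 to 219 CPM in vehicle and 203 to 221 CPM in ISRIB libraries (0.0044, adjusted p 0.983). Anxa5 was at 291 ± 17.6 and 276 ± 18.4 CPM (adjusted p 0.611). Anxa8 had 118 and 167 counts in all, with 1.90 to 2.82 CPM in vehicle and 2.50 to 4.0 CPM in ISRIB libraries (0.42, adjusted p 0.382, fold interval 0.962 to 1.86). Its depth is too low to exclude a change of the size seen in Anxa5 after bleomycin. Anxa4, Anxa6, Anxa7 and Anxa11 changed by -0.06, -0.06, -0.06 and -0.05, with adjusted p from 0.579 to 0.797.

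**Figure D4:**
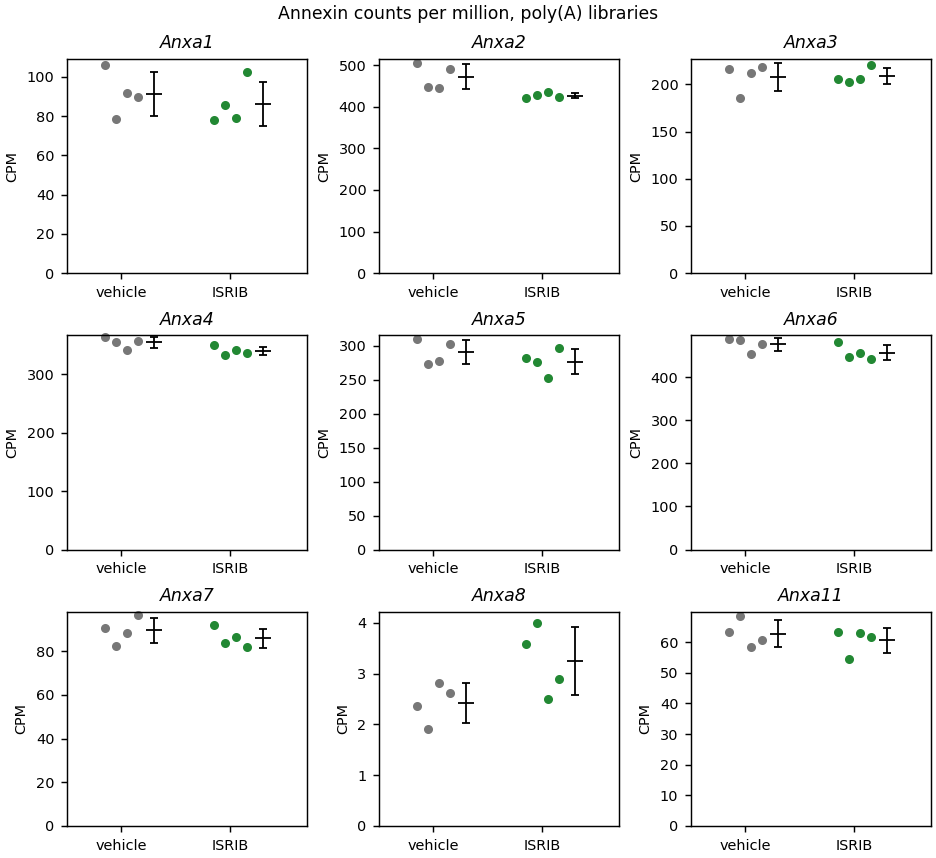
CPM of each annexin in the 4 vehicle and 4 ISRIB poly(A) libraries (points, in replicate order), with mean and SD. Groups overlapped for 8 genes; for Anxa2 every ISRIB library (421 to 435 CPM) was below every vehicle library (446 to 506 CPM).

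Few partner genes passed after ISRIB, though most estimates were below 0. None of 7 tested EF-hand genes, none of 9 phosphatidylserine genes and none of 4 surface genes passed by edgeR, with 2, 2 and 0 at an unadjusted p under 0.05 (1934 of the 12054 genes tested). Of these estimates 5 of 7, 8 of 9 and 1 of 4 were below 0, as were 10 of 11 in the membrane repair list and 6031 over all genes. S100a10, the Anxa2 partner, was lower in every ISRIB library, at 80.9 to 90.4 CPM in vehicle and 70.2 to 78.8 CPM after ISRIB (log2 fold change -0.20, SE 0.06, adjusted p 0.0980). S100a6 changed by -0.48 (SE 0.12, adjusted p 0.0546) and passed without the filter (4.33e-04), in DESeq2 (0.0175) and without vehicle 2 (0.0457). S100a11 changed by -0.12 (adjusted p 0.510), Pdcd6 by 0.01 (0.969) and Sri by -0.01 (0.960). Of 11 membrane repair genes 1 fell, Syt7, a calcium sensor for lysosome exocytosis, by 0.35 on the log2 scale (SE 0.08, adjusted p 0.0255). That call was lost without vehicle 1 (0.0694), vehicle 3 (0.0697), ISRIB 1 (0.0568), ISRIB 2 (0.0737) or ISRIB 3 (0.0659).

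Markers were also read in the poly(A) set, where 1.1% of all genes were called lower. Of 15 transitional markers 3 were called lower after ISRIB (Krt19, Hbegf and Sprr1a, named after their values were seen) and 11 estimates were below 0, with sums of 931 to 1105 CPM in vehicle and 843 to 1100 CPM in ISRIB libraries. Of 12 AT2 markers 1 was called lower, the transcription factor gene Etv5 (0.822-fold, edgeR adjusted p 0.00817). None of 14 AT1 markers passed by edgeR, with 4 at an unadjusted p under 0.05 (1934 of the 12054 genes tested). Their sums were 4466 to 4812 CPM in vehicle and 4224 to 4558 CPM in ISRIB libraries. Of 11 airway markers 9 were tested and none passed by edgeR, with 4 at an unadjusted p under 0.05. Their sums were 3786 to 4275 CPM in vehicle and 2415 to 4180 CPM in ISRIB libraries. Lymphocyte sums did not overlap, at 18.5 to 20.7 and 15.8 to 17.8 CPM, and the 1 gene tested did not pass. Macrophage and monocyte, neutrophil, fibroblast and endothelial sums overlapped. The part of these markers in the values of annexins and their partners was not tested.

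**Figure D5:**
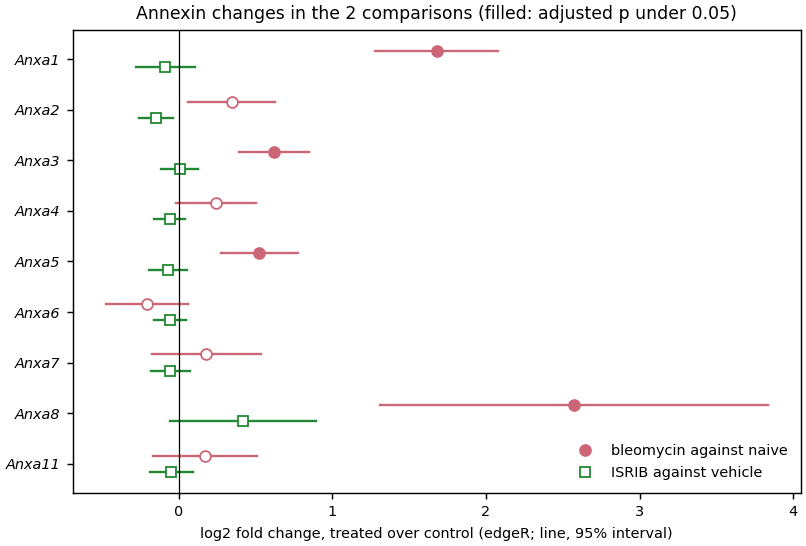
Log2 fold change of each annexin (x axis) after bleomycin (circles) and after ISRIB (squares), with 95% intervals; filled symbols passed an adjusted p of 0.05. After bleomycin 4 symbols are filled, with the largest changes for Anxa8 at 2.57 and Anxa1 at 1.68. Anxa8 passed the filter on low counts only through the bleomycin libraries. After ISRIB no symbol is filled.

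The 2 comparisons used different kits and different control libraries, and the difference between them was not tested. Anxa1 changed by 1.68 after bleomycin and -0.09 after ISRIB, Anxa3 by 0.62 and 0.0044, Anxa5 by 0.52 and -0.07, and Anxa8 by 2.57 and 0.42.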

How the data were processed

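Each kit has 1 deposited table of raw counts, with Ensembl gene IDs as rows and libraries as columns. The submitters' processing notes name Trimmomatic 0.36, STAR 2.6.0 and HTSeq 0.11.2 with the build mm10. For the counting, annotation and strand setting: not given in the sources used here. Per the labels' protocols, RNA input was 3 ng with poly(A) selection or 0.35 ng with a total-RNA kit. Symbols, positions and union exon lengths came from GENCODE M21 (GRCm38), which held 42546 of the 43430 IDs.

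Within each kit, genes were kept by filterByExpr (at least 10 counts, total 15) and scaled by TMM. Group was the only term in edgeR's quasi-likelihood fit (edgeR 4.0.16, R 4.3.3). P-values were adjusted over all genes tested, with a threshold of 0.05. CPM use effective library sizes for genes that passed the filter, and raw totals for genes below it and for marker sums. The SE is the unshrunken log2 fold change over the root of F, and the 95% intervals use the t quantile of that fit. The fit was tested on simulated data. Alternatives were RLE scaling, no filter, DESeq2 1.42.0, limma-voom (limma 3.58.1), the replicate number as a block, ribosomal-RNA-like models left out and each library left out.

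The annexins and the lists were chosen with earlier results of these data known. All 9 annexins were named, with the other family members that had counts. Fixed partners were S100a10, S100a11, S100a6, Pdcd6 and Sri, and up to 6 called list genes per direction were added by lowest p. The genes most like Anxa1 were ranked by Pearson correlation, and 1 of the 3 that this rule names is not reported here.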

Additional observations from a re-analysis of the deposited data

Results flagged for a closer look

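Within groups of 4 or 5 libraries, the highest or lowest library was set against Dixon's 95% limit in 130 groups, and 11 had a library apart from the rest. Chance flags about 1 in 20. Bleomycin 2 was the library apart in 5 of them. It was high for Anxa1 (328 CPM, the others 157 to 198), Anxa7 (73.1 CPM, the others 41.8 to 47.5), S100a6 (49.6 CPM, the others 17.7 to 22.9) and the macrophage and monocyte markers (34.5 CPM in sum, the others 12.1 to 17.2). It was low for Atp8a1 (704 CPM, the others 1027 to 1134). Of the macrophage and monocyte sum in bleomycin 2, 18.2 CPM came from 1 gene, Spp1.

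Anxa3 was high in ISRIB 4 (221 CPM, the others 203 to 206). S100a11 was high in naive 2 (57.3 CPM, the others 35.6 to 38.2). Atp8a1 was high in naive 4 (1517 CPM, the others 1451 to 1462), and the endothelial markers were low there (19.7 CPM in sum, the others 27.9 to 28.8). Sftpc was high in naive 1 (42987 CPM, the others 36814 to 37372), and the AT2 markers were high in naive 2 (95224 CPM in sum, the others 91581 to 91979).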

How the results depend on the processing

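The calls of Anxa1, Anxa3, Anxa5 and Anxa8 after bleomycin held under all 15 alternatives, and no annexin passed after ISRIB under any of 14. The number of annexins called after bleomycin was 4, or 5 with Anxa2, which passed without the filter on low counts (0.37), and left-out libraries gave 4 to 5 and an Anxa2 change of 0.29 to 0.45. Anxa3 after ISRIB ran from -0.046 to 0.026 over left-out libraries, turning below 0 without vehicle 2 or ISRIB 4. Over all genes, the 265 ISRIB calls became 648 without the filter, 408 with DESeq2 and 86 to 269 over left-out libraries, down to 86 without vehicle 1, 102 without vehicle 2 and 159 without ISRIB 4. The 2304 bleomycin calls ran from 1554 to 2584 over left-out libraries. For genes that did not pass, signs turned over left-out libraries for S100a10 (-0.25 to 0.012) and Pdcd6 (-0.020 to 0.22) after bleomycin, and for Pdcd6 (-0.015 to 0.035) and Sri (-0.028 to 0.030) after ISRIB. The cause was not tested. Same-numbered libraries did not deviate together (r -0.04 to 0.05 in the total-RNA set and -0.11 to 0.08 in the poly(A) set), so the numbers were not taken as pairs. With the replicate block the counts were 2187 and 277, with 4 and 0 annexins called, and S100a6 passed after ISRIB (adjusted p 0.0370). Depth limits Anxa8, with 16 naive counts, and it passed the filter on low counts only through the bleomycin libraries.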

Other observations

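In the bleomycin comparison, some genes around the annexins were below the filter on low counts and so have no test across genes. They are given as summed counts, chosen after their values were seen, with 95% Clopper-Pearson intervals that cover counting error only. The ferlin gene Dysf, which takes part in membrane repair, had 3 counts in naive and 61 in bleomycin libraries, a ratio of 12.1 (3.95 to 60.4). By library it stood at 0.30, 0.21, 0.29 and 0 CPM in naive and at 2.31, 4.88, 1.26, 4.55 and 0.51 CPM in bleomycin libraries. The plasminogen activator gene Plau had 7 and 49 counts, a ratio of 4.17 (1.88 to 10.9), and its receptor gene Plaur 5 and 42, a ratio of 5.0 (1.98 to 16.2). For both the groups overlapped by library. Plau ranged from 0 to 1.19 CPM in naive and 0.26 to 4.24 CPM in bleomycin libraries, and Plaur from 0 to 0.64 and 0.17 to 3.57 CPM. In the ISRIB comparison Dysf had 12 counts in vehicle and 10 in ISRIB libraries, a ratio of 0.797 (0.309 to 2.01). Plaur, which passed the filter there, had 43 and 28 (edgeR adjusted p 0.473).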
